A study of Homo sapiens with 36 samples.

Results

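The NF-kB and Rel subunits are 5 related transcription factor genes, NFKB1, NFKB2, REL, RELA and RELB. They were taken as all probe sets that the array annotation gave to 1 of these genes alone, which made 101 of the 352859 probe sets measured. NFKB2 had 22, RELB 16, NFKB1 27, REL 11 and RELA 25. In tests across genes each gene was represented by its brightest probe set, so the subunits were 5 of 22260 genes. Expression was measured on 36 arrays of CCRF-CEM, a human T-cell leukaemia line, and DU145, a human prostate carcinoma line. Each line was present as SLFN11 knockout cells and as SLFN11-proficient parent cells, either without camptothecin (control) or after 6 h or 12 h in 250 nM of it, giving 12 groups of 3 arrays. All cells grew in RPMI1640 medium with 10% FBS, DMSO was the other addition that the labels name, and when control cells were harvested is not stated. SLFN11 is a nuclear protein that acts at stressed replication forks, and camptothecin traps topoisomerase I on DNA. Each line had a single knockout group, not stated to be a clone or a pool, so an effect of SLFN11 loss and one of how the cells were derived cannot be told apart. Nothing in the labels says that the 3 arrays of a group came from separate cultures, so p-values measure only the spread between these arrays, which may be technical.

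All 5 subunits share the Rel homology domain, through which they pair with each other and bind DNA. In the canonical pathway, IkB proteins hold dimers such as RELA with the NFKB1 product p50 in the cytoplasm until the IKK complex marks IkB for destruction. In the noncanonical pathway, the kinase NIK and IKK alpha cause the NFKB2 precursor p100 to be cut to p52, which enters the nucleus with RELB. RELA, RELB and REL carry a transactivation domain, while p50 and p52 lack one. Several subunit and IkB genes are themselves targets of NF-kB, and DNA breaks are known to reach IKK through ATM. REL is most abundant in lymphoid cells. Here NFKB2 and RELB are called the noncanonical subunits and NFKB1, REL and RELA the canonical ones.

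Promoter sequences are shown because several subunit genes are known targets of the family itself. RefSeq windows (GRCh38.p14) of the 250 bases before a gene start were searched on both strands for NFKB2, NFKB1, REL and RELA, and RELB was not searched. The letters sought were those of the kappaB consensus, with overlapping matches merged. Of 35116 such windows 9.96% held a match. Of 8 windows of NFKB2, NFKB1, REL and RELA, 4 did, namely 2 of 3 for NFKB2, 1 of 2 for NFKB1, 1 of 1 for REL and 0 of 2 for RELA. The 4 windows with a match follow, all on the plus strand and written 5′ to 3′, with the matching stretches in capitals.
NFKB2, chr10:102394328-102394577: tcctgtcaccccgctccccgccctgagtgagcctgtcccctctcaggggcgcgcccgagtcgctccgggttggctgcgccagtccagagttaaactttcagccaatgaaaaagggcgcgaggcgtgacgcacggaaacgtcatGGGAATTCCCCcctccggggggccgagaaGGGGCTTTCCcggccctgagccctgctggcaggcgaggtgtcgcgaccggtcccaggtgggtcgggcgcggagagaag
NFKB2, chr10:102395455-102395704: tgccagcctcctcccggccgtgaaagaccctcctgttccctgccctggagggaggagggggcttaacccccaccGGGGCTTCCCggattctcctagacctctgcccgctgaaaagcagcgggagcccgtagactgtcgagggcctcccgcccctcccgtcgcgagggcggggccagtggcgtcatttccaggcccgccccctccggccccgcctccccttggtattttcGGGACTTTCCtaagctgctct
NFKB1, chr4:102501109-102501358: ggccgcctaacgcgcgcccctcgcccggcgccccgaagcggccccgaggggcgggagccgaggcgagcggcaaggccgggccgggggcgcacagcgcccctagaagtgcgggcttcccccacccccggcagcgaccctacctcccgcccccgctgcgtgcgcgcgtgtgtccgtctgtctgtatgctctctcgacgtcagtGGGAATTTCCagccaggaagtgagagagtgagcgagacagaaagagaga
REL, chr2:60881324-60881573: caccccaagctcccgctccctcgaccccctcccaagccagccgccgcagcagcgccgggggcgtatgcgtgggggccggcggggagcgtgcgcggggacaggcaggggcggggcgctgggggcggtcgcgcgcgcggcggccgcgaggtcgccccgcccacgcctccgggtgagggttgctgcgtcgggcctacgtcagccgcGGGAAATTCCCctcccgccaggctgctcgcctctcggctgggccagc
The first NFKB2 window held GGGAATTCCCC and GGGGCTTTCC, which began 107 and 78 bases before the start. The other held GGGGCTTCCC and GGGACTTTCC, at 176 and 21 bases before it. NFKB1 held GGGAATTTCC at 49 bases and REL GGGAAATTCCC at 47. These are matches of letters and were not tested as binding sites.

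No arrays were identical, Pearson r within a group ran from 0.979 to 0.988 across genes, and the median log2 signal of an array was 4.78 to 4.86. Epithelial markers had a median of 6.39 in CCRF-CEM and 10.46 in DU145, and T-lineage markers had a median of 11.19 in CCRF-CEM and 6.31 in DU145 (log2 signal, 6 and 7 genes). EPCAM reached 8.37 in CCRF-CEM, while CLDN4 had 7.32 in DU145. B-lineage and myeloid markers had medians of 5.87 and 6.30 in CCRF-CEM and DU145, but CD79A had 10.87 in CCRF-CEM. Fibroblast and endothelial markers had medians of 7.52 and 7.20, with COL1A1 at 11.31 and 11.59. The markers thus separate the lines only in part. Of 11 SLFN11 probe sets, 16843406 to 16843409 were lower in untreated knockout than parent cells of both lines, and 16843409 by the most, by -1.07 in CCRF-CEM and -2.85 in DU145 (log2). The other 7 probe sets were higher, and since the sources do not say where the gene was cut, this checks the labels only in part. The number of arrays limits the precision of every value below, and in such bulk samples fewer cells of a type and less RNA per cell cannot be told apart.

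By their brightest probe sets, NFKB2 and RELB were among the genes that rose most in camptothecin-treated CCRF-CEM parent cells. By the estimated change of that probe set, RELB ranked 1 at 6 h and 3 at 12 h of all 22260 genes, and NFKB2 ranked 4 at both times. The corresponding changes were far smaller in CCRF-CEM knockout cells. In DU145 parent cells both genes rose as well, 2.10-fold to 2.67-fold. The brightest probe set was picked by its mean over all arrays, treated ones included, which can favour probe sets that rise. In CCRF-CEM parent controls RELB probe set 16863179 stood at 6.89 and the one picked at 5.69. NFKB2 probe set 16708624 stood at 8.85 there and the one picked at 7.14. Over the RELB probe sets the median change at 6 h was 1.00 and the highest, 4.08, was that of the one picked. Ranks under another choice were not computed.

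NFKB2 encodes p100, the precursor of p52. It stood at 8.09, 7.74 and 7.92 in CCRF-CEM knockout controls, 9.16, 8.80 and 8.53 at 6 h and 8.84, 8.75 and 8.91 at 12 h (log2 signal of each array). Its values were 7.47, 7.72 and 6.23 in CCRF-CEM parent controls, 11.02, 10.88 and 10.90 at 6 h and 11.29, 11.28 and 11.29 at 12 h. All treated parent arrays lay above all other CCRF-CEM arrays, and 1 parent control lay well below the other two. The change in parent cells was 3.79 ± 0.28 at 6 h and 4.15 ± 0.28 at 12 h (log2 ± SE, 13.88-fold and 17.75-fold; limma adjusted p = 6.36e-07 and 1.7e-07). Leaving out each array in turn gave 3.34 to 4.08 at 6 h and 3.70 to 4.44 at 12 h. Treated knockout arrays also lay above their controls, but the changes of 0.91 ± 0.28 and 0.92 ± 0.28 did not pass (limma adjusted p = 0.0658 and 0.0548).

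RELB encodes the partner of p52. Knockout CCRF-CEM cells had 5.13, 6.06 and 5.06 in control, 7.14, 6.81 and 6.72 at 6 h and 6.66, 5.91 and 5.92 at 12 h. CCRF-CEM parent cells had 5.81, 5.40 and 5.87 in control, 9.88, 9.93 and 9.52 at 6 h and 10.34, 10.38 and 10.29 at 12 h. Treated parent arrays stood far above the rest of the line, whereas knockout arrays at 12 h overlapped their controls. In parent cells RELB rose by 4.08 ± 0.26 at 6 h and 4.64 ± 0.26 at 12 h (16.92-fold and 24.95-fold; limma adjusted p = 1.91e-07 and 2.73e-08). In knockout cells it rose by 1.47 ± 0.26 at 6 h (limma adjusted p = 0.00336), while 0.75 ± 0.26 at 12 h did not pass (limma adjusted p = 0.0883; 1.07 with adjusted p = 0.0137 without knockout control replicate 2). These sizes belong to the brightest probe set. The mean over all 16 RELB probe sets gave 1.34 and 1.73 in parent cells, and in knockout cells 0.12 at 6 h and -0.06 at 12 h, neither of which passed (limma adjusted p = 0.589 and 0.819). For NFKB2 the mean over its 22 probe sets gave 2.80 and 2.89 in parent cells, and in knockout cells 0.48 at 6 h, which passed (limma adjusted p = 0.0151).

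**Figure D1:**
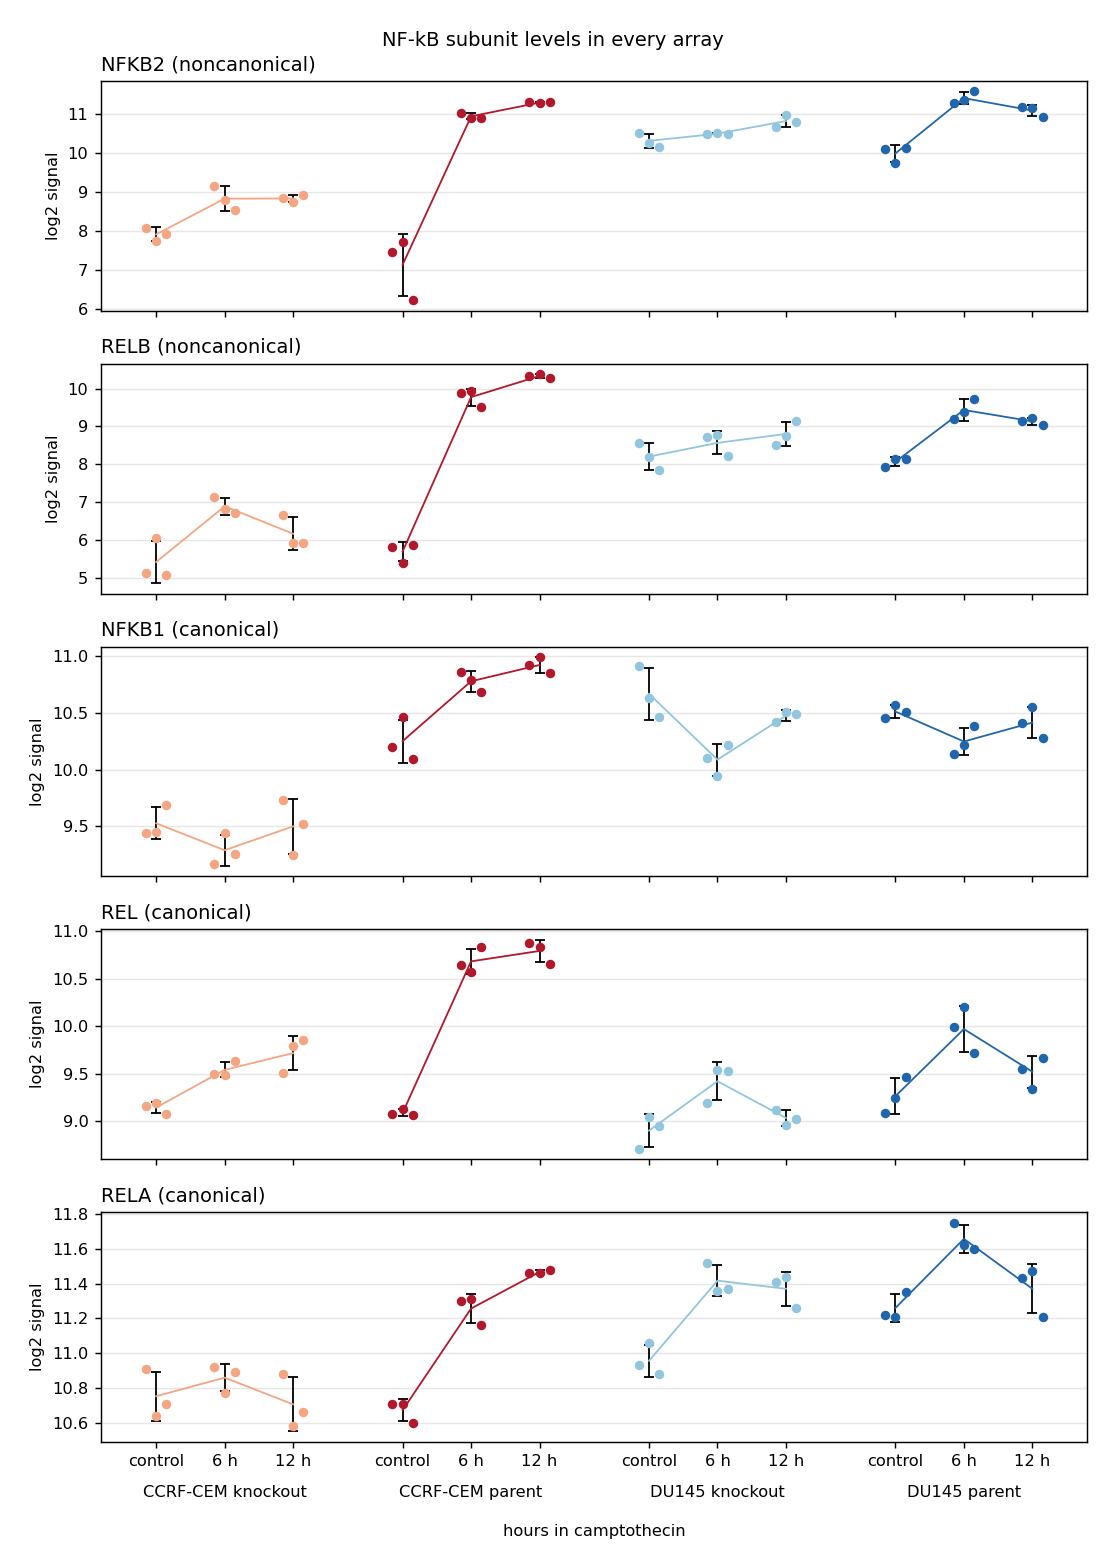
Log2 signal of the brightest probe set of each subunit gene (y axis, own range in each panel) on every array (points) of the 12 groups, with group mean ± SD (n = 3) and lines joining the means of control, 6 h and 12 h. NFKB2 and RELB separate most in CCRF-CEM, where parent means at 12 h were 11.29 and 10.33 while knockout means were 8.83 and 6.16.

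NFKB1 encodes p105, the precursor of p50. In CCRF-CEM knockout cells it had 9.44, 9.45 and 9.69 in control, 9.17, 9.44 and 9.26 at 6 h and 9.73, 9.25 and 9.52 at 12 h. Parent cells of the line had 10.20, 10.46 and 10.09 in control, 10.86, 10.79 and 10.68 at 6 h and 10.92, 10.99 and 10.85 at 12 h. Parent arrays all lay above all knockout arrays, also without drug. Untreated knockout cells were lower by 0.72 ± 0.13 (limma adjusted p = 0.0107; 0.0512 without knockout control replicate 2 and 0.0551 without parent control replicate 2). The parent changes of 0.53 ± 0.13 and 0.67 ± 0.13 passed (limma adjusted p = 0.0165 and 0.00239). The 6 h call was lost without parent control replicate 1 or 3 or without 6 h replicate 1, at 0.50, 0.45 and 0.49 (limma adjusted p = 0.0606, 0.0646 and 0.0626). As the mean of all NFKB1 probe sets the parent changes were 0.78 and 0.72, and both passed (limma adjusted p = 5.33e-06 and 8.39e-06). The untreated knockout minus parent difference was -0.68 in that setting (limma adjusted p = 7.81e-05). Knockout changes were -0.24 ± 0.13 and -0.02 ± 0.13 and did not pass (limma adjusted p = 0.35 and 0.942), though the mean of all NFKB1 probe sets passed at 6 h, at -0.29 (limma adjusted p = 0.0393).

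REL encodes c-Rel, the subunit best known in lymphocytes. Knockout CCRF-CEM arrays read 9.16, 9.19 and 9.08 in control, 9.50, 9.49 and 9.63 at 6 h and 9.51, 9.79 and 9.85 at 12 h. Parent arrays of this line read 9.07, 9.13 and 9.06 in control, 10.65, 10.57 and 10.83 at 6 h and 10.88, 10.84 and 10.66 at 12 h. Controls of both genotypes stood together, and treated arrays lay above them in both, with no overlap. REL rose in parent cells by 1.60 ± 0.11 and 1.71 ± 0.11 (limma adjusted p = 3.01e-07 and 9.15e-08) and in knockout cells by 0.40 ± 0.11 and 0.58 ± 0.11 (limma adjusted p = 0.0366 and 0.00421). The knockout call at 6 h was lost in each of 6 fits that left out 1 array, at 0.36 to 0.43 with an adjusted p up to 0.124. As the mean of all REL probe sets this change was 0.32 and passed (limma adjusted p = 0.0246).

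RELA encodes p65, the main transactivating partner of p50. Its CCRF-CEM knockout values were 10.91, 10.64 and 10.71 in control, 10.92, 10.77 and 10.89 at 6 h and 10.88, 10.58 and 10.66 at 12 h. Its parent values in that line were 10.71, 10.71 and 10.60 in control, 11.30, 11.31 and 11.16 at 6 h and 11.46, 11.46 and 11.48 at 12 h. Knockout groups overlapped throughout, whereas treated parent arrays lay above their controls. The parent rise was 0.59 ± 0.10 and 0.79 ± 0.10 (limma adjusted p = 0.00119 and 6.56e-05), and the knockout changes of 0.10 ± 0.10 and -0.05 ± 0.10 did not pass (limma adjusted p = 0.638 and 0.824).

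In all, 2 of 5 subunits rose at 6 h and 1 of 5 at 12 h in CCRF-CEM knockout cells, where 3.52% and 5.40% of all genes rose. In the parent cells 5 of 5 rose at both times, where 7.36% and 9.51% of all genes rose. In untreated knockout relative to parent cells 1 of 5 was lower, NFKB1, as were 0.521% of all genes, and 2 had an unadjusted p below 0.05. NFKB2 was higher there by 0.78 ± 0.28, which did not pass (limma adjusted p = 0.243), and leaving out 1 array gave 0.33 to 1.07. The same control arrays enter the genotype difference given below.

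DU145 controls of both genotypes lay above all CCRF-CEM controls for NFKB2 and RELB on the same probe sets, a difference that was not tested. NFKB2 had 10.51, 10.26 and 10.15 in DU145 knockout controls, 10.48, 10.51 and 10.48 at 6 h and 10.67, 10.98 and 10.79 at 12 h. It had 10.10, 9.74 and 10.12 in DU145 parent controls, 11.27, 11.36 and 11.57 at 6 h and 11.17, 11.15 and 10.93 at 12 h. Treated parent arrays lay above their controls, and knockout arrays did so at 12 h only. Parent cells rose by 1.41 ± 0.14 and 1.10 ± 0.14 (2.67-fold and 2.15-fold; limma adjusted p = 1.25e-05 and 0.000156). Knockout cells gave 0.18 ± 0.14 at 6 h, which did not pass (limma adjusted p = 0.507), and 0.51 ± 0.14 at 12 h, which passed (limma adjusted p = 0.029). As the mean of all NFKB2 probe sets the knockout values at 6 h and 12 h were 0.33 and 0.45, and both passed (limma adjusted p = 0.0417 and 0.0067). The 12 h call of the brightest probe set was lost without knockout control replicate 2 or 3 or without 12 h replicate 2 or 3. Those fits gave 0.42 to 0.52 with an adjusted p up to 0.123.

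RELB in DU145 knockout cells had 8.56, 8.19 and 7.86 in control, 8.71, 8.77 and 8.22 at 6 h and 8.51, 8.75 and 9.15 at 12 h. In DU145 parent cells it had 7.93, 8.14 and 8.13 in control, 9.19, 9.38 and 9.74 at 6 h and 9.14, 9.22 and 9.05 at 12 h. Only the parent arrays separated fully from their controls. RELB rose in parent cells by 1.37 ± 0.21 and 1.07 ± 0.21 (limma adjusted p = 0.000585 and 0.00474; 0.63 and 0.56 as the mean of all its probe sets). In knockout cells 0.36 ± 0.21 and 0.60 ± 0.21 did not pass (limma adjusted p = 0.349 and 0.0868; at 12 h 0.78 with adjusted p = 0.0394 without knockout control replicate 1). As the mean of all probe sets these knockout changes were 0.13 and 0.06 (limma adjusted p = 0.582 and 0.8).

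The canonical subunits went different ways in DU145. NFKB1 had 10.91, 10.63 and 10.46 in knockout controls, 10.10, 9.94 and 10.22 at 6 h and 10.42, 10.51 and 10.49 at 12 h. In parent cells it had 10.45, 10.57 and 10.51 in control, 10.14, 10.22 and 10.38 at 6 h and 10.41, 10.55 and 10.28 at 12 h. The 6 h arrays of both genotypes lay below their controls, and the 12 h arrays overlapped them. NFKB1 fell by 0.58 ± 0.12 in knockout cells at 6 h (limma adjusted p = 0.00887), and -0.27 ± 0.12 in parent cells did not pass (limma adjusted p = 0.216). As the mean of its 27 probe sets the 6 h changes were -0.36 in knockout and -0.34 in parent cells, and both passed (limma adjusted p = 0.00339 and 0.00478). At 12 h the changes of -0.19 ± 0.12 in knockout and -0.10 ± 0.12 in parent cells did not pass (limma adjusted p = 0.409 and 0.724), but over the mean of all probe sets the knockout change was -0.30 and passed (limma adjusted p = 0.011).

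REL in DU145 knockout cells had 8.71, 9.04 and 8.95 in control, 9.19, 9.54 and 9.53 at 6 h and 9.12, 8.96 and 9.02 at 12 h. DU145 parent cells had 9.09, 9.24 and 9.46, then 9.99, 10.20 and 9.72, then 9.55, 9.34 and 9.67 at the same times. Its 6 h arrays lay above their controls in both genotypes, with overlap at 12 h. REL rose at 6 h by 0.52 ± 0.15 in knockout and 0.71 ± 0.15 in parent cells (limma adjusted p = 0.0447 and 0.00746). The knockout call was lost without any of the 3 knockout controls or 6 h replicate 2 or 3, with an adjusted p of 0.056 to 0.15. As the mean of all REL probe sets the knockout change at 6 h was 0.62 and passed (limma adjusted p = 0.00339).

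RELA in DU145 knockout cells had 10.93, 11.06 and 10.88 in control, 11.52, 11.36 and 11.37 at 6 h and 11.41, 11.44 and 11.26 at 12 h. Its DU145 parent values were 11.22, 11.21 and 11.35 in control, 11.75, 11.62 and 11.60 at 6 h and 11.43, 11.47 and 11.21 at 12 h. Treated knockout arrays lay above their controls at both times, and parent arrays at 6 h only. RELA rose in knockout cells by 0.46 ± 0.10 and 0.41 ± 0.10 (limma adjusted p = 0.0108 and 0.0175) and in parent cells at 6 h by 0.40 ± 0.10 (limma adjusted p = 0.0207). As the mean of all RELA probe sets the knockout changes were 0.52 and 0.44, and both passed (limma adjusted p = 0.000291 and 0.000986). The parent change at 6 h was 0.42 in that setting and passed (limma adjusted p = 0.0014). By the brightest probe set each of these calls depended on single arrays. The knockout call at 12 h was lost without control replicate 3 or 12 h replicate 1 or 2 (0.37, 0.39 and 0.38; limma adjusted p = 0.0678, 0.0618 and 0.0718), and the knockout call at 6 h without 6 h replicate 1 (0.41; limma adjusted p = 0.0531). The parent call was lost without control replicate 1 or 2 or 6 h replicate 1 (0.38, 0.37 and 0.36; limma adjusted p = 0.0642, 0.072 and 0.0795).

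The counts in DU145 knockout cells were 2 of 5 higher and 1 lower at 6 h and 2 of 5 higher at 12 h, where 5.32% of all genes were higher and 3.39% lower at 6 h and 6.31% higher at 12 h. In DU145 parent cells 4 of 5 rose at 6 h and 2 of 5 at 12 h, where 5.67% and 3.80% of all genes rose. Among untreated DU145 cells limma called 0 of 5 (11.4% of all genes passed in either direction), with 3 at an unadjusted p below 0.05, and REL and RELA had the largest estimates below 0, at -0.37 ± 0.15 and -0.30 ± 0.10 (limma adjusted p = 0.14 and 0.0705). As the mean of all its probe sets REL passed there, at -0.43 (limma adjusted p = 0.037).

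**Figure D2:**
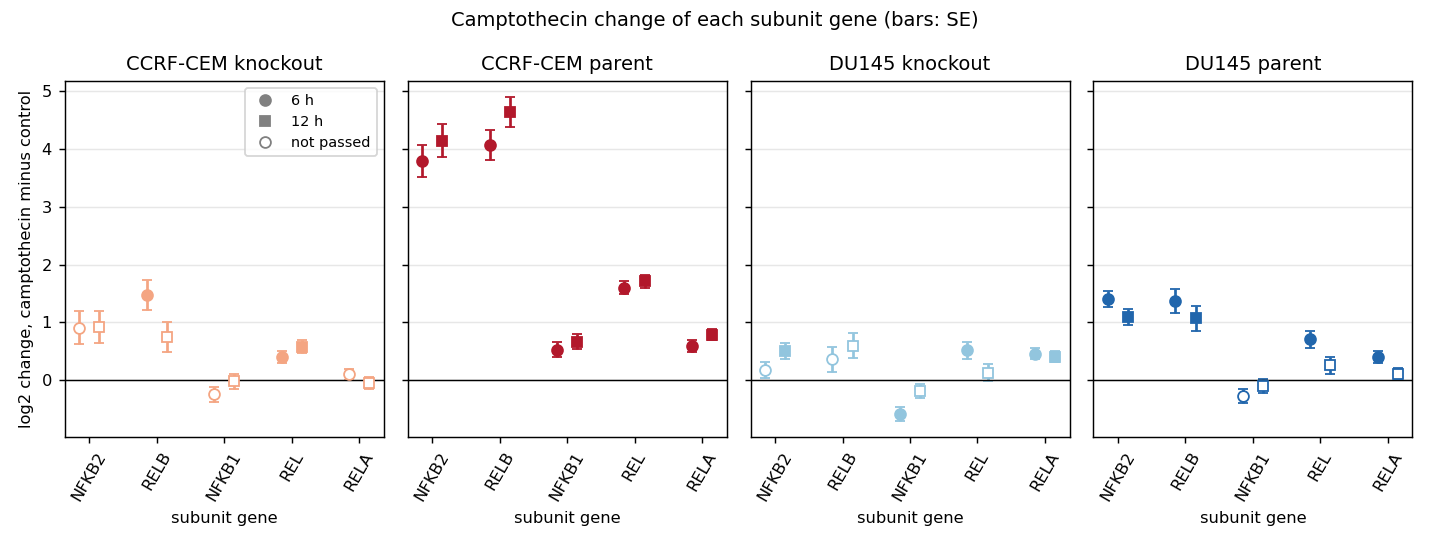
Log2 change ± SE (y axis) of each subunit gene (x axis) after 6 h (circles) and 12 h (squares) of camptothecin relative to control, with CCRF-CEM panels left of DU145 and knockout left of parent; filled points passed at an adjusted p below 0.05. NFKB2 and RELB in CCRF-CEM parent cells stand at 3.79 to 4.64, and the largest other change is 1.71.

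Between 6 h and 12 h limma called 0 of 5 subunits in CCRF-CEM knockout, CCRF-CEM parent, DU145 knockout and DU145 parent cells, with 1, 1, 3 and 3 at an unadjusted p below 0.05. Of all genes 0.517%, 5.78%, 0.386% and 0.454% passed there in either direction. RELB in CCRF-CEM parent cells had 0.56 ± 0.26 (limma adjusted p = 0.237), and 0.39 as the mean of all its probe sets, which passed (limma adjusted p = 0.044).

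The genotype difference, the knockout change minus the parent change, was tested directly. In CCRF-CEM it was negative for NFKB2 by -2.88 ± 0.39 at 6 h and -3.23 ± 0.39 at 12 h (limma adjusted p = 0.00109 and 0.000227). RELB gave -2.61 ± 0.36 and -3.89 ± 0.36 (limma adjusted p = 0.00136 and 2.47e-05), or -1.22 and -1.78 as the mean of all its probe sets. REL gave -1.20 ± 0.15 and -1.13 ± 0.15 (limma adjusted p = 0.00062 and 0.000433). These 3 genes passed in each of 12 fits that left out 1 array. RELA passed at 12 h, at -0.85 ± 0.14 (limma adjusted p = 0.00236), and not at 6 h, at -0.48 ± 0.14 (limma adjusted p = 0.0942).

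NFKB1 passed narrowly by its brightest probe set, at -0.76 ± 0.19 and -0.70 ± 0.19 (limma adjusted p = 0.0488 and 0.0347). As the mean of all its probe sets it gave -1.08 and -0.73 and passed at both times (limma adjusted p = 5.12e-05 and 0.00119). The 6 h call of the brightest probe set was kept only without parent control replicate 2, and the other 11 fits gave -0.84 to -0.68 with an adjusted p of 0.0549 to 0.112. Its 12 h call was kept without knockout control replicate 2, knockout 12 h replicate 1 or parent control replicate 2, and in the other fits the estimate was -0.74 to -0.57 with an adjusted p of 0.0503 to 0.0855. In total 4 of 5 subunits passed at 6 h and 5 of 5 at 12 h in CCRF-CEM, all with negative values, where 1.54% and 3.63% of all genes passed with negative values.

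In DU145 only NFKB2 passed, at 6 h, with -1.23 ± 0.19 (limma adjusted p = 0.00467; 0.782% of all genes passed with negative values). RELB gave -1.01 ± 0.29 at 6 h, which did not pass (limma adjusted p = 0.125). At 12 h limma called 0 of 5, with 1 at an unadjusted p below 0.05 (1.13% of all genes passed in either direction), and NFKB2 gave -0.60 ± 0.19 (limma adjusted p = 0.146). The mean of all NFKB2 probe sets gave -0.84 at 12 h and passed (limma adjusted p = 0.00827). The 6 h and 12 h comparisons of a line share their control arrays.

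**Figure D3:**
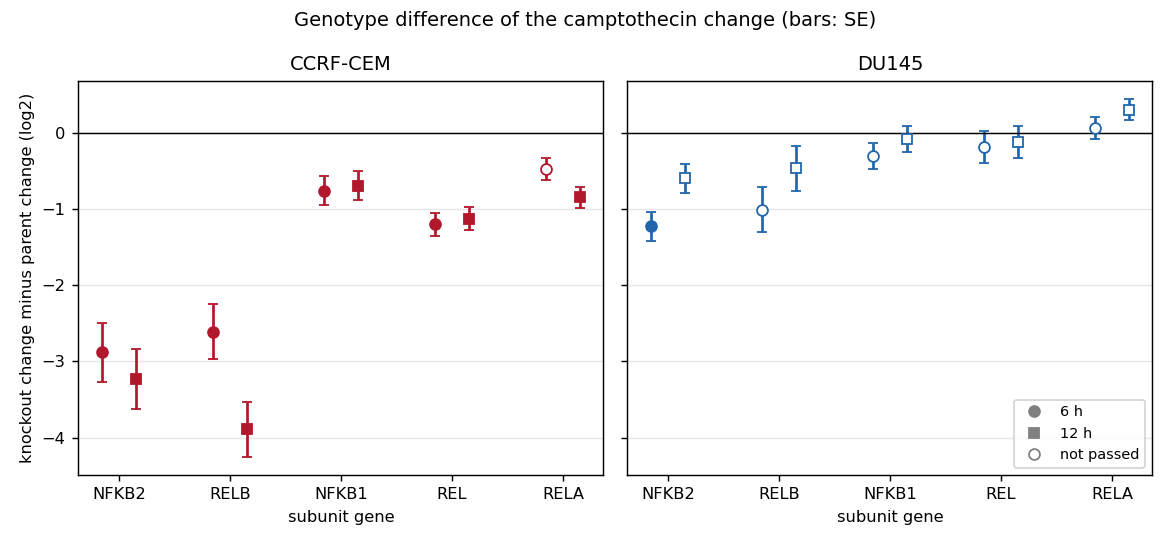
Genotype difference of the camptothecin change, knockout minus parent (log2 ± SE, y axis), for each subunit gene (x axis) at 6 h (circles) and 12 h (squares), CCRF-CEM left and DU145 right; filled points passed at an adjusted p below 0.05. The CCRF-CEM values of NFKB2 and RELB lie between -3.89 and -2.61.

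The lines were compared in 1 fit of all 36 arrays. The parent change was larger in CCRF-CEM than in DU145 for RELB, by 2.71 ± 0.34 at 6 h and 3.57 ± 0.34 at 12 h (limma adjusted p = 1.14e-05 and 4.23e-08; 0.71 and 1.16 as the mean of all probe sets). For NFKB2 the difference was 2.38 ± 0.31 and 3.05 ± 0.31 (limma adjusted p = 2.44e-05 and 1.87e-07; 1.35 and 1.60 as the mean of all probe sets). REL differed by 0.89 ± 0.18 and 1.45 ± 0.18 and NFKB1 by 0.79 ± 0.18 and 0.77 ± 0.18. RELA passed at 12 h, at 0.68 ± 0.13 (limma adjusted p = 0.000869; 0.45 as the mean of all probe sets), and not at 6 h, at 0.19 ± 0.13 (limma adjusted p = 0.477). The counts were 4 of 5 at 6 h and 5 of 5 at 12 h, all larger in CCRF-CEM, as were 2.68% and 5.88% of all genes.

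The genotype difference itself differed between the lines at 12 h for 4 of 5 subunits, all with negative values, as did 2.69% of all genes. RELB differed by -3.42 ± 0.48, NFKB2 by -2.64 ± 0.44, RELA by -1.15 ± 0.19 and REL by -1.01 ± 0.26 (CCRF-CEM minus DU145; limma adjusted p = 7.84e-05, 0.000661, 0.000499 and 0.019). As the mean of all probe sets RELB differed by -1.29 and NFKB2 by -1.71 (limma adjusted p = 0.000741 and 1.47e-05). NFKB1 gave -0.60 ± 0.25 (limma adjusted p = 0.191). At 6 h limma called 0 of 5, where 0.530% of all genes passed in either direction, with 4 at an unadjusted p below 0.05. NFKB2 and REL came closest, at -1.65 ± 0.44 and -1.01 ± 0.26 (limma adjusted p = 0.0856 and 0.0638). As the mean of all probe sets, NFKB2, NFKB1 and REL passed there. Leaving out parent control replicate 2 or 3 of CCRF-CEM made NFKB2 pass at -1.94 and -1.20 (limma adjusted p = 0.0211 and 0.0473). REL passed without DU145 knockout 6 h replicate 1, parent control replicate 1 or parent 6 h replicate 2 (-1.12, -1.10 and -1.13; limma adjusted p = 0.0376, 0.0458 and 0.0355).

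Set side by side by their brightest probe sets, the noncanonical subunits had the larger mean change in all 8 treated groups, which did not hold with the mean of all probe sets. In CCRF-CEM knockout cells NFKB2 and RELB averaged 1.19 at 6 h and 0.83 at 12 h, and NFKB1, REL and RELA averaged 0.09 and 0.17. CCRF-CEM parent cells gave 3.94 and 4.40 for the noncanonical and 0.90 and 1.06 for the canonical subunits. DU145 knockout cells gave 0.27 and 0.55 against 0.13 and 0.12, and the noncanonical mean was below the canonical one on 1 of the 3 arrays at 6 h, by 0.10. DU145 parent cells gave 1.39 and 1.09 against 0.28 and 0.09. With the mean of all probe sets of each gene, a setting added after the data were seen, DU145 knockout cells at 6 h gave 0.23 for the noncanonical and 0.26 for the canonical subunits. CCRF-CEM knockout cells at 12 h gave 0.14 and 0.13 in that setting. In parent cells the gap was smaller but kept its sign on every array, with 2.07 and 2.31 against 0.98 and 1.05 in CCRF-CEM and 1.04 and 0.93 against 0.26 and 0.13 in DU145. These are descriptions without a test, and each mean joins probe sets of different genes.

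**Figure D4:**
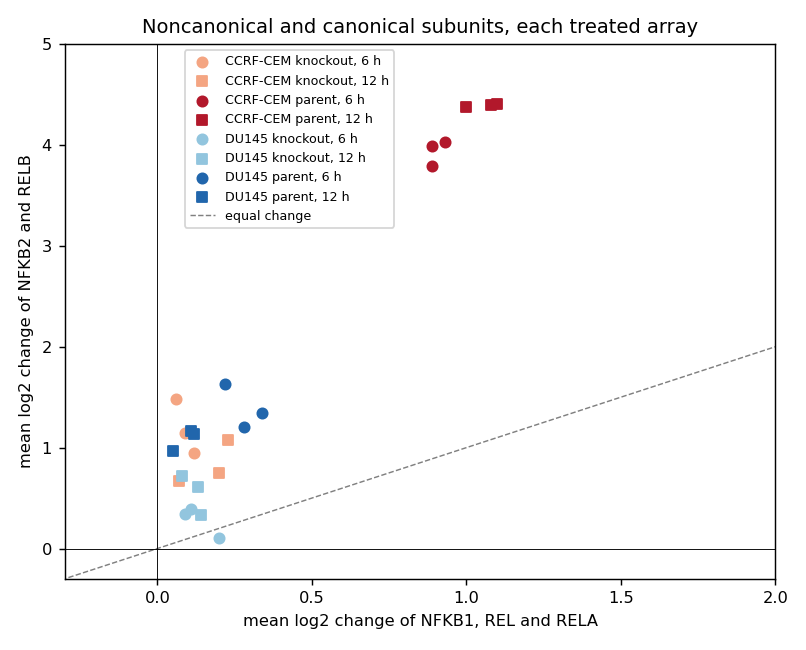
Mean log2 change from the control mean of NFKB2 and RELB (y axis) against that of NFKB1, REL and RELA (x axis) for each treated array, with 6 h as circles and 12 h as squares; the dashed line marks equal changes and the axes differ in scale. CCRF-CEM parent arrays lie at 3.79 to 4.41 on the y axis, and every treated array lies above the line except 1 of DU145 knockout cells at 6 h.

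Probe sets of a gene were fitted alone as well, over all 352859. Of the 22 NFKB2 probe sets 14 rose at 6 h and 17 at 12 h in CCRF-CEM parent cells, with changes of 0.07 to 6.03 and -0.00 to 6.35. Of the 16 RELB probe sets 8 and 9 rose, of the 11 REL probe sets 9 and 10, of the 27 NFKB1 probe sets 9 and 8, and of the 25 RELA probe sets 2 and 11. Over all probe sets 2.22% and 3.42% rose. The RELB changes ran from -0.91 to 4.08 at 6 h, and probe sets 16863173 and 16863179 stood at -0.62 ± 0.45 and -0.77 ± 0.48 without passing.

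In CCRF-CEM knockout cells 4 of 22 NFKB2 and 1 of 16 RELB probe sets rose at 6 h, and 0 of NFKB1, REL and RELA, where 0.477% of all probe sets rose. At 12 h 2 of 11 REL, 1 of 22 NFKB2 and 1 of 27 NFKB1 probe sets rose, and 0 of RELB and RELA, where 0.570% did. NFKB1 probe set 16969301 was lower after the drug in both genotypes of CCRF-CEM, at -1.25 ± 0.24 and -1.96 ± 0.24 in knockout cells at 6 h and 12 h (limma adjusted p = 0.0161 and 0.00146) and -1.10 ± 0.24 and -1.31 ± 0.24 in parent cells (limma adjusted p = 0.0177 and 0.00387). It was singled out after its values were seen. NFKB2 probe set 16708624, also chosen that way, had 0.07 ± 0.23 at 6 h in parent cells, where the gene's median probe set had 2.47. NFKB1 had 2 probe sets with no group mean above the arrays' lower quartile, and NFKB2 and RELA had 1 each.

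**Figure D5:**
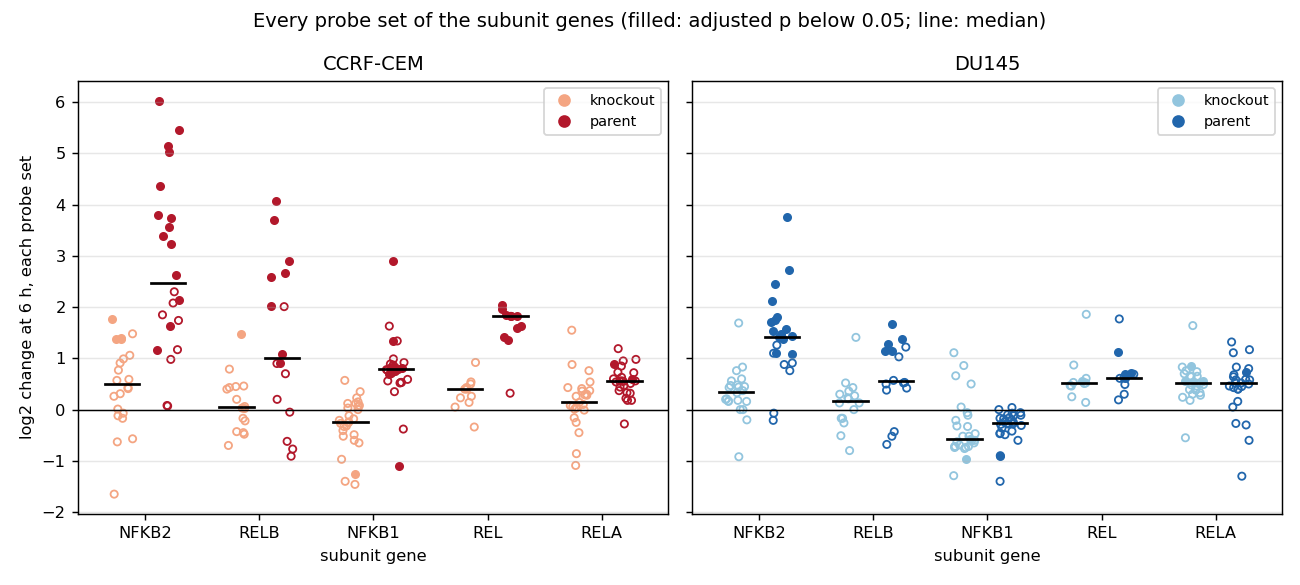
Log2 change at 6 h (y axis) of every probe set of each subunit gene (x axis), knockout left of parent, with CCRF-CEM and DU145 in separate panels; filled points passed at an adjusted p below 0.05 over all probe sets and bars mark the median. NFKB2 probe sets of CCRF-CEM knockout cells have a median of 0.50, and those of parent cells a median of 2.47.

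The order of the group means shows where neighbouring levels overlap. NFKB2 was highest in DU145 parent cells at 6 h (11.40 ± 0.16, SD, n = 3) and lowest in CCRF-CEM parent controls (7.14 ± 0.79), with overlap between 5 of 11 neighbours. RELB was highest in CCRF-CEM parent cells at 12 h (10.33 ± 0.04) and lowest in CCRF-CEM knockout controls (5.42), with overlap between 7 of 11. NFKB1 was highest in CCRF-CEM parent cells at 12 h (10.92 ± 0.07) and lowest in CCRF-CEM knockout cells at 6 h (9.29), and 10 of 11 neighbours overlapped. REL was highest in CCRF-CEM parent cells at 12 h (10.79 ± 0.11) and lowest in DU145 knockout controls (8.90), and 10 of 11 overlapped. RELA was highest in DU145 parent cells at 6 h (11.66 ± 0.08) and lowest in CCRF-CEM parent controls (10.67), and 9 of 11 overlapped.

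The pathway around the subunits was followed in lists of its other genes, whose counts stand beside the share of all genes called. The lists were chosen with earlier results of these data known, so the counts are descriptions and not a test of the lists. In CCRF-CEM knockout cells 3.52% of all genes were higher and 2.92% lower at 6 h, and 5.40% and 2.81% at 12 h. In CCRF-CEM parent cells these shares were 7.36% and 5.06% at 6 h and 9.51% and 7.30% at 12 h. Against such shares a count of 0 or 1 in a list of 6 to 20 genes is near the background and is no result about the list.

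Of the 6 IkB proteins 0 passed in CCRF-CEM knockout cells at either time, and 4 (66.7%) rose in parent cells at both, with a list median of 0.89 at 6 h where the median of all genes was -0.02. NFKBIA, the classical inhibitor of RELA dimers, rose in parent cells by 1.86 ± 0.14 and 0.92 ± 0.14 (limma adjusted p = 1.24e-06 and 0.00041). Its genotype difference was -1.44 ± 0.20 at 6 h, which passed, and -0.50 ± 0.20 at 12 h, which did not (limma adjusted p = 0.00159 and 0.16). BCL3, a nuclear IkB that binds p50 and p52, rose by 1.46 ± 0.18 and 1.69 ± 0.18 (limma adjusted p = 8.04e-05 and 1.46e-05). In DU145 parent cells 3 (50%) rose at 6 h and 2 at 12 h, where 5.67% and 3.80% of all genes rose, NFKBIA by 1.20 ± 0.13 and 1.05 ± 0.13. In DU145 knockout cells at 6 h 1 rose and 1 fell, where 5.32% of all genes rose and 3.39% fell, so these counts are near the background. NFKBIA was the one that fell, by 0.45 ± 0.13 (limma adjusted p = 0.0406).

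Of 12 genes of noncanonical signalling 0 passed at 6 h in CCRF-CEM knockout cells, a count that 3.52% higher and 2.92% lower over all genes would also give. In parent cells 3 (25%) rose, where 7.36% of all genes did, and 1 fell. BIRC3, a ubiquitin ligase that with TRAF3 keeps NIK low, rose there by 3.13 ± 0.22 at 6 h and 2.65 ± 0.22 at 12 h (limma adjusted p = 6.06e-07 and 1.57e-06). In knockout cells its changes of 0.64 ± 0.22 and 0.72 ± 0.22 did not pass (limma adjusted p = 0.11 and 0.0604). MAP3K14, which encodes NIK, rose at 6 h by 0.61 ± 0.16 (limma adjusted p = 0.0196). The receptor gene CD27 fell by 1.25 ± 0.13 and 0.92 ± 0.13. In DU145 BIRC3 fell in knockout cells by 0.67 ± 0.13 and 0.79 ± 0.13 and rose in parent cells by 1.23 ± 0.13 and 0.77 ± 0.13, a genotype difference of -1.91 ± 0.18 and -1.56 ± 0.18 (limma adjusted p = 5.4e-05 and 0.00115).

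Of the 15 genes of the IKK complex and its activation 0 passed in CCRF-CEM knockout cells at either time. In parent cells 2 (13.3%) were higher and 1 (6.67%) lower at 6 h, and 1 higher and 2 lower at 12 h. These counts lie near the shares of all genes in both genotypes. CHUK, which encodes IKK alpha, rose by 0.75 ± 0.16 at 6 h, and TRAF6, an adaptor ligase, rose by 0.74 ± 0.13 and 0.82 ± 0.13. Among 8 brakes on IKK 1 rose and 1 fell at 6 h in CCRF-CEM knockout cells, and 3 (37.5%) rose in parent cells, where 7.36% of all genes did. TNFAIP3, which encodes the deubiquitinase A20, fell in CCRF-CEM knockout cells by 0.40 ± 0.09 at 6 h and rose in parent cells by 0.89 ± 0.09 (limma adjusted p = 0.0141 and 1.14e-05). In DU145 parent cells it rose by 1.97 ± 0.09 (limma adjusted p = 2.06e-08).

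Of 20 textbook targets 3 (15%) rose at 6 h in CCRF-CEM knockout cells, where 3.52% of all genes did. At 12 h 1 (5%) rose there, which is near the 5.40% of all genes. In parent cells at 6 h 3 (15%) rose and 1 fell, where 7.36% of all genes rose and 5.06% fell. At 12 h 4 (20%) rose and 1 fell in parent cells, where 9.51% of all genes rose and 7.30% fell. The chemokine gene CXCL8 rose in parent cells by 2.58 ± 0.22 and 3.17 ± 0.22 (limma adjusted p = 2.62e-06 and 2.32e-07), and the early response gene IER3 by 2.12 ± 0.15 and 2.51 ± 0.15. IER3 also rose in knockout cells at 6 h, by 0.58 ± 0.15 (limma adjusted p = 0.0289), with a genotype difference of -1.53 ± 0.21 (limma adjusted p = 0.00109). CD83, which encodes a surface protein of mature dendritic cells, rose in CCRF-CEM knockout cells by 1.41 ± 0.13 and 1.38 ± 0.13 and in parent cells by 0.89 ± 0.13 and 0.63 ± 0.13. Its genotype difference was positive, at 0.52 ± 0.18 at 6 h, which did not pass, and 0.75 ± 0.18 at 12 h, which passed (limma adjusted p = 0.153 and 0.0196). In DU145 CD83 rose by 1.32 ± 0.16 and 1.35 ± 0.16 in knockout and by 1.62 ± 0.16 and 1.54 ± 0.16 in parent cells.

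DU145 knockout cells had 1 target higher and 1 lower at 6 h, where 5.32% and 3.39% of all genes were. Untreated, 4 of 20 targets (20%) and 3 of 6 IkB genes (50%) were already higher in DU145 knockout than parent cells, and 0 lower. Of all genes 11.4% passed there in either direction, so at most that share was higher. The same control arrays enter the DU145 genotype differences of these genes. DU145 parent cells had 9 (45%) higher, where 5.67% of all genes were, among them CCL20, a chemokine, by 2.43 ± 0.24 (limma adjusted p = 1.36e-05). Of 7 measured TNF-family ligands 0 passed at 6 h in CCRF-CEM cells of either genotype, and in parent cells at 12 h TNF rose by 0.88 ± 0.23 (limma adjusted p = 0.0145). Of 6 genes that carry the DNA damage signal to IKK 1 rose and 1 fell at 6 h in CCRF-CEM knockout cells, and 2 fell in parent cells. ATM, the kinase of that path, fell by 0.55 ± 0.08 in knockout and 0.50 ± 0.08 in parent cells (limma adjusted p = 0.000613 and 0.00042).

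Genes whose 12 group means, each line centred on its own mean, were most like a subunit's were sought among 4985 protein-coding genes with a range of at least 1 log2. For NFKB2 the highest Pearson r belonged to TRAPPC6B (0.993), IER3 (0.971), FAM53C (0.965), RELB (0.963) and ZMYM5 (0.958). RELB was followed by IER3 (0.985), EGR1 (0.978) and ZNF773 (0.972), and REL by MXD1 (0.983), ODR4 (0.974) and TRAIP (0.971). NFKB1 had FBLN1 (0.961) and RELA had ATG2A (0.964) at the top. Among the subunits r ran from 0.51 for NFKB1 with RELA to 0.96 for NFKB2 with RELB. All these points come from the same arrays, and without centring only RELB for NFKB2 and FBLN1 for NFKB1 stayed among the top 5.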

How the data were processed

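Total RNA (TRIzol, then columns with DNase) was amplified and labelled with biotin using the GeneChip WT Plus kit, per the labels' protocols. Values come from RMA in Partek, per the submitters' processing notes, with no versions given. The authors deposited 1 normalized log2 signal per probe set and array (0.97 to 13.92), which was taken without further scaling. No source used here names a genome build for the deposited probe sets.

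Probe sets with exactly 1 symbol numbered 259224, 13116 had several and 80519 none. Of 22320 symbols 1726 were updated through RefSeq synonyms and 65 had no match. A gene was represented by whichever of its probe sets was brightest on average over all arrays, treated ones included. No array and no gene was left out.

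Each line was fitted alone (18 arrays, 6 groups, 12 residual degrees of freedom) with limma 3.58.1 (lmFit, eBayes) in R 4.3.3, and lines were compared in a fit of all 36 arrays. Benjamini-Hochberg adjustment ran over all genes, or all probe sets, of a contrast. A change passed at an adjusted p below 0.05. SE is limma's moderated standard error. In data simulated for the CCRF-CEM parent change at 6 h the fit was tested on known changes. Tables and plots used Python 3.11.15 with pandas 2.3.3 and matplotlib 3.10.9.

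Results were recomputed with cyclic loess or housekeeping scaling, after removing dim genes, averaging a gene's probe sets or testing each of them, fitting both lines together or just the groups of a contrast, adding array weights, a robust variance trend or a replicate block, at an adjusted p below 0.01 and without each array. Similar patterns were also sought without centring. Named genes were the 5 subunits, SLFN11, up to 4 passing genes of a list per contrast with the largest changes (of which examples are printed), and the 5 genes most like each subunit. Members and lists were chosen with earlier results of these data known. In the pathway lists TNFSF12 was not measured. Of the B-lineage and myeloid markers 5 of 6 were measured, and of the fibroblast and endothelial markers 4 of 5.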

Additional observations from a re-analysis of the deposited data

Results flagged for a closer look

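Flagged were subunits whose camptothecin change passed the test of a difference between genotypes or between lines. In CCRF-CEM the knockout change minus the parent change at 6 h was -2.88 for NFKB2, -2.61 for RELB, -1.20 for REL and -0.76 for NFKB1 (log2). At 12 h it was -3.23 for NFKB2, -3.89 for RELB, -1.13 for REL, -0.85 for RELA and -0.70 for NFKB1. In DU145 it was -1.23 for NFKB2 at 6 h.

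The parent change in CCRF-CEM minus that in DU145 at 6 h was 2.38 for NFKB2, 2.71 for RELB, 0.89 for REL and 0.79 for NFKB1. At 12 h it was 3.05 for NFKB2, 3.57 for RELB, 1.45 for REL, 0.77 for NFKB1 and 0.68 for RELA. The genotype difference in CCRF-CEM minus that in DU145 at 12 h was -2.64 for NFKB2, -3.42 for RELB, -1.01 for REL and -1.15 for RELA. No test for an outlying array was run, since a group held 3 arrays.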

How the results depend on the processing

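Over 110 subunit results and 11 alternatives, 1095 of 1190 values kept their direction and their side of the threshold, 53 lost and 28 gained a call, and 14 changed sign, of which 0 passed in either fit. Leaving out 1 array left 955 of 1020 unchanged, with 47 calls lost, 7 gained and 11 changes of sign, of which 0 passed in either fit. Counts of subunits called moved as follows, and the causes were not tested. Smaller moves, some of them upward, are not all in this list. The highest count in any alternative was 3 in CCRF-CEM knockout cells at 6 h and 5 in DU145 parent cells at 6 h. In DU145 knockout cells it was 4 at 6 h and 3 at 12 h. The CCRF-CEM genotype counts ran from 3 to 5 at 6 h and 4 to 5 at 12 h. In CCRF-CEM knockout cells at 12 h the count of 1 became 3 in 1 fit of all arrays, 2 with housekeeping scaling, the level filter, the replicate block or the variance trend, and 0 with only the arrays compared (1 to 2 leaving out an array). At 6 h the count of 2 became 1 at an adjusted p below 0.01, with cyclic loess, with housekeeping scaling or with every probe set tested, and 0 with only the arrays compared (1 leaving out any array). The untreated CCRF-CEM count of 1 became 0 at an adjusted p below 0.01, with every probe set tested or with only the arrays compared (0 to 1). In DU145 knockout cells at 12 h the count of 2 became 1 in 1 fit of all arrays or with cyclic loess, and 0 at an adjusted p below 0.01, with every probe set or with only the arrays compared (0 to 3). At 6 h the count of 3 became 1 at an adjusted p below 0.01, with housekeeping scaling or with every probe set, and 0 with only the arrays compared (2 leaving out any array). With only the arrays compared, the DU145 parent count of 4 at 6 h and the count of 4 for the line difference in parent change at 6 h both became 2. The count of 0 for untreated DU145 became 1 in 1 fit of all arrays and with the level filter, the mean of all probe sets or the variance trend. For the line difference in genotype difference at 6 h, 0 became 1 with the level filter, 2 with the variance trend and 3 with the mean of all probe sets (0 to 1). The mean of all probe sets gave 1 instead of 0 for the CCRF-CEM parent change between 6 h and 12 h and for the DU145 genotype difference at 12 h.

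Arrays that share a replicate number did not deviate together (median r of -0.03 to 0.02, and 14 of 36 arrays correlated best with their own number), so the numbers were not taken as pairs. With the replicate block the CCRF-CEM genotype counts were 3 at 6 h and 4 at 12 h. Housekeeping scaling shifted the median of all genes by up to 0.24, in CCRF-CEM parent cells at 12 h.

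The changes of sign were as follows. With housekeeping scaling the CCRF-CEM knockout change at 12 h was 0.12 for NFKB1 and 0.09 for RELA, the untreated CCRF-CEM difference -0.07 for REL and -0.04 for RELA, the DU145 parent change at 12 h 0.02 for NFKB1, the DU145 genotype difference at 6 h -0.09 for RELA, and the DU145 knockout change between 6 h and 12 h 0.08 for RELA. With the mean of all probe sets the CCRF-CEM knockout change at 12 h was -0.06 for RELB and 0.01 for RELA, the change between 6 h and 12 h was -0.14 for NFKB2 in CCRF-CEM knockout, -0.06 for NFKB1 in CCRF-CEM parent and -0.06 for RELB in DU145 knockout cells, and the DU145 genotype difference at 12 h was 0.15 for REL. In that setting the noncanonical minus canonical change in DU145 knockout cells at 6 h was -0.03. Array weights gave -0.00 for NFKB2 between 6 h and 12 h in CCRF-CEM knockout cells, and leaving out an array gave -0.15 to 0.17 there. Leaving out an array gave -0.14 to 0.10 for NFKB1 and -0.14 to 0.03 for RELA in CCRF-CEM knockout cells at 12 h, -0.20 to 0.03 for the DU145 genotype difference of NFKB1 at 12 h, -0.08 to 0.01 for RELA between 6 h and 12 h in DU145 knockout cells, and -0.04 to 0.31 for RELB in untreated DU145 cells. The causes were not tested.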
